A study of Mus musculus with 26 samples.

Results

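The caput epididymis of ArKI and wild-type (WT) mice was compared across the whole transcriptome. ArKI mice carry a germline knock-in allele in which the lysines of a steroid receptor that accept the small protein SUMO are replaced by arginines. Males with the allele make only the mutant protein, in every cell that expresses it. All animals were males of C57Bl/6N; 129 hybrid background, as the labels give it, aged 3 months, and the WT controls shared that background and age. The comparison took the 10 caput samples (5 ArKI and 5 WT) of the 26 samples in the series, chosen by their labels, and all 23337 genes counted in them.

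The caput is the proximal part of the epididymis, just after the initial segment (IS). Its principal cells secrete proteins into the lumen, where they act on sperm that have left the testis, and androgen sustains this secretion. SUMO attached to a steroid receptor is known to modulate its transcriptional activity at a part of its target genes. The tissue contains epithelial, stromal and immune cells and also luminal sperm, which carry RNA made in the testis. RNA of whole caput was sequenced, so that fewer cells of a type and less RNA per cell cannot be told apart.

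Levels are given as CPM, the counts of a gene relative to the library total, scaled by edgeR's TMM factors. The WT samples held 8435665 to 9755329 counts and the ArKI samples 4125768 to 11913469, with the fewest in ArKI replicate 2. In that sample 3 counts, taken as the smallest readable signal, equal 0.692 CPM, and in the other 9 samples 0.247 to 0.365 CPM, limits that cover counting error only. The first principal component, with 58.5% of the variance, separated the genotypes. The median correlation of ArKI replicate 2 with its own group was 0.981, below the 0.986 to 0.991 of the other samples. Summed principal cell markers took 92772 to 113876 CPM in the WT and 75732 to 117494 CPM in the ArKI samples, and none of the 12 was at 0 throughout. Each error below is an SD over 5 samples or a standard error (SE) of the fit, and a p-value sets the genotype difference against the spread between these samples.

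Which genes of the caput depend on the SUMO acceptor sites is the question of this comparison. With the FDR limit set at 0.01 and the fold limit at 2, 333 genes were upregulated and 350 downregulated in the ArKI caput among 13726 tested by edgeR's quasi-likelihood test, 4.98% of the tested genes (2.43% up and 2.55% down). All 5 ArKI samples lay on one side of all 5 WT samples for 651 of these 683 genes and for 20.3% of all tested genes. The 2 directions were composed differently when genes were divided by their level in the WT testis. A gene was taken as testis-enriched where its WT testis CPM, plus 0.5, was at least 10 times the higher of the WT IS and WT caput values. Testis and epididymis were normalised separately and sequenced in different runs, so the ratio sorts genes only roughly. Of 727 tested testis-enriched genes 157 were downregulated (21.6%) and 27 upregulated (3.71%). Of the other 12999 genes 193 were downregulated (1.48%) and 306 upregulated (2.35%). The median log2 fold change was -0.16 over the testis-enriched genes and 0.0017 over all tested genes. Calls were most frequent at low levels. Of genes that are not testis-enriched 9.15% were called at a mean of 1 to 10 CPM and 2.01% at 10 to 100 CPM. The share was 1.55% at 100 to 1000 CPM and 6.1% at 1000 CPM or more. A gene near 0 in one genotype entered the test only through the other, so its p-value and the list counts that hold it are descriptions.

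**Figure D1:**
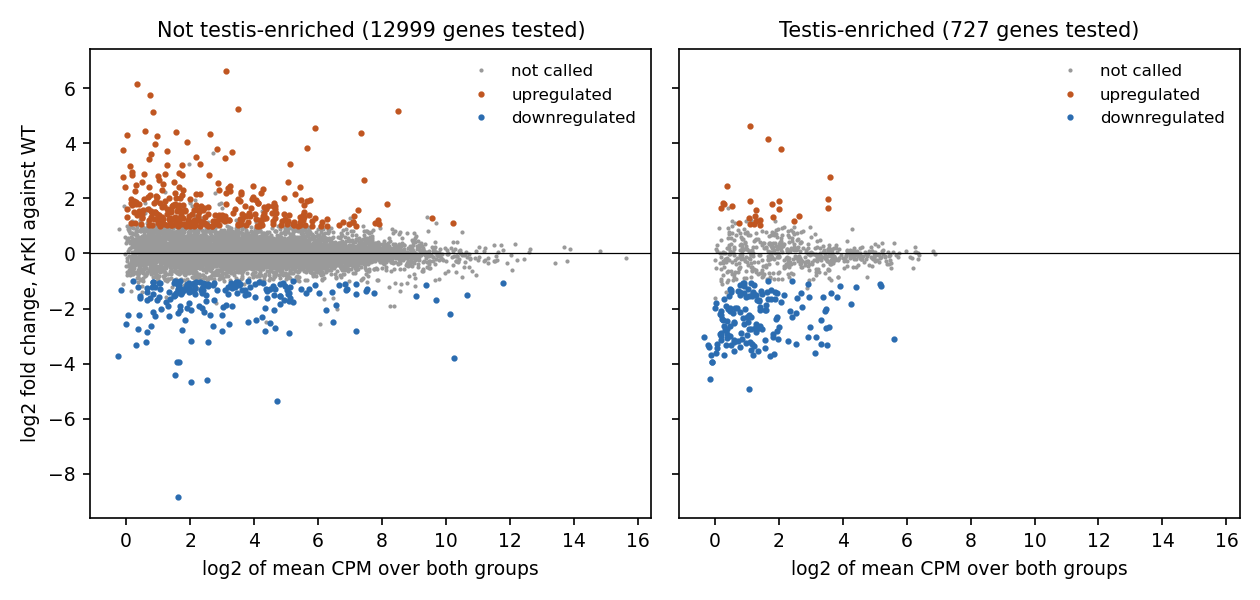
Log2 fold change of ArKI against WT (vertical axis) against the log2 of the mean CPM over both groups (horizontal axis) for 12999 genes that are not testis-enriched (left) and 727 testis-enriched genes (right). Orange points are upregulated, blue points downregulated and grey points neither; on the right 157 of the called genes lie below 0 and 27 above, and on the left 193 below and 306 above.

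Transcripts of sperm were lower in the ArKI caput. Of 68 genes of late spermatids and sperm 41 could be tested, of which 29 were downregulated and none upregulated, and 40 of the 41 were testis-enriched. Downregulated were 21.6% of all tested testis-enriched genes and 2.55% of all tested genes. Most genes of the sperm list have few counts, and some passed the filter through the WT samples alone. The count therefore depends on the filter: with 10 counts required in every sample 5 were downregulated, and with no filter beyond 1 count 41. No gene of the list was at 0 in every sample. Protamines package DNA in the sperm head, and *Prm2* was read at 77.3, 72.8, 134, 74.7 and 84.8 CPM in the WT samples and 3.25, 5.31, 4.41, 18.4 and 16.4 CPM in the ArKI samples. Its groups did not overlap (log2 fold change -3.09, SE 0.44, edgeR adjusted p = 0.001). *Akap4*, a structural protein of the sperm tail, was read at 15.3, 15.1, 22.3, 12.7 and 16.6 CPM in WT and 0, 0.692, 0.530, 2.06 and 2.55 CPM in ArKI samples (log2 fold change -3.63, SE 0.44, edgeR adjusted p = 2.2e-04). *Smcp*, of the sperm mitochondrial capsule, fell by 1.16 on the log2 scale, from 51.3 ± 9.09 to 22.1 ± 7.43 CPM (SE 0.21, edgeR adjusted p = 0.003), and *Odf1*, of the outer dense fibres, by 1.10, from 49.8 ± 6.85 to 22.2 ± 7.69 CPM. Without ArKI replicate 3 the change of *Smcp* was no longer called, and without ArKI replicates 1, 2, 3 or 5, each alone, that of *Odf1*. The summed sperm list took 0.0670% to 0.0924% of the counts in the WT and 0.0316% to 0.0446% in the ArKI samples, so the groups did not overlap and the whole list was a small part of every library. *Odf2* and *Hk1*, which are also transcribed in somatic cells, differed less, with log2 fold changes of -0.51 and -0.20. Of 12 tested genes of meiotic spermatocytes, 7 of them testis-enriched, 3 were downregulated, near the 21.6% of testis-enriched genes. In this list 1 gene (*Piwil2*) was upregulated, and only in part of the fits with a sample left out. The genes named from here on are not testis-enriched unless said to be so, whereas list counts cover all tested members, of which a few are testis-enriched in some lists (8 of the solute carriers and 4 of the glycolysis genes, for example).

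Genes of peptide hormones and neuropeptides held calls in both directions. Of 20 tested genes of the list 7 were upregulated and 2 downregulated (2.43% and 2.55% of all genes), with a median log2 fold change of 0.65. *Npy*, which encodes neuropeptide Y (chromosome 6, 49822710 to 49829507), was read at 21.6, 20.8, 17.4, 19.4 and 18.4 CPM in the WT samples and 745, 647, 759.8, 642 and 694 CPM in the ArKI samples. Every ArKI sample lay far above every WT sample, and the log2 fold change of 5.16 had an SE of 0.078 (edgeR adjusted p = 1.6e-17). *Penk*, the precursor of enkephalins, was read at 129.7, 126, 140.5, 136 and 109 CPM in WT and 489, 405, 479, 489 and 365 CPM in ArKI samples (log2 fold change 1.80, SE 0.092, edgeR adjusted p = 8.1e-09). *Agt* encodes angiotensinogen, from which angiotensin peptides are cut, and it was read at 85.6, 26.5, 52.3, 21.7 and 51.4 CPM in WT and 292, 313, 273, 341 and 278 CPM in ArKI samples (log2 fold change 2.65, SE 0.35, edgeR adjusted p = 6.9e-04). The groups did not overlap for either gene, although the WT samples spread more widely for *Agt*. *Cartpt*, the precursor of the CART peptides, rose from 0.747 ± 0.354 to 8.27 ± 2.17 CPM. *Pcsk2*, a convertase that cuts prohormones, rose from 0.199 ± 0.225 to 1.96 ± 0.508 CPM, *Sct* (secretin) from 3.15 ± 0.493 to 8.54 ± 0.814 CPM and *Igf1* (insulin-like growth factor 1) from 18.5 ± 3.39 to 50.2 ± 9.95 CPM. The 2 members that fell were *Tac2*, the precursor of neurokinin B, at 5.02, 8.24, 7.71, 12.4 and 5.71 CPM in WT and 0, 0.461, 0.353, 0.257 and 0.411 CPM in ArKI samples, and *Igf2*, which fell by 1.36 on the log2 scale. *Cartpt* and *Pcsk2* passed the filter through the ArKI samples and *Tac2* through the WT samples. *Pappa2*, a metalloprotease that cleaves IGF-binding proteins, is in no list and was read at 4.81, 5.10, 4.2, 6.21 and 3.73 CPM in WT and 110.1, 174, 93.6, 117 and 79.0 CPM in ArKI samples (log2 fold change 4.55, SE 0.27, edgeR adjusted p = 3.7e-06). Its groups did not overlap.

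**Figure D2:**
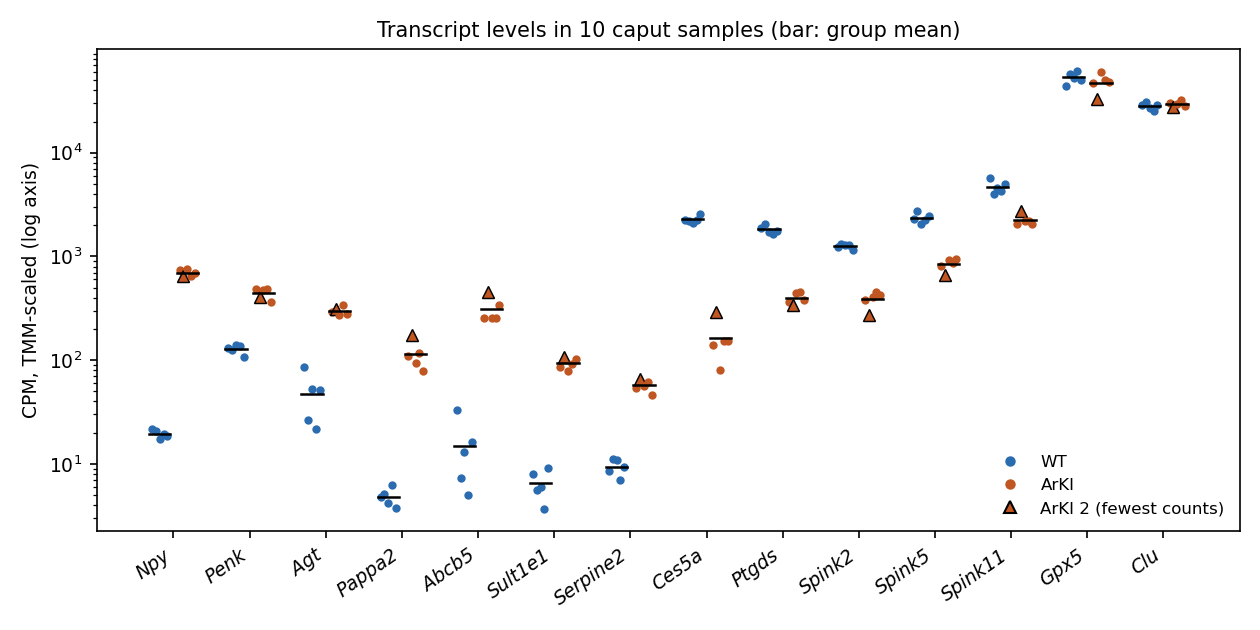
CPM on a logarithmic axis for 14 genes in each of the 10 caput samples, with WT in blue, ArKI in orange, ArKI replicate 2 as a triangle and group means as bars. The groups lie apart for the first 12 genes, 7 higher and 5 lower in ArKI, and overlap for *Gpx5* and *Clu*.

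Cytosolic sulfotransferases transfer sulfate to steroids and other small molecules, and 3 of 7 tested members, of 18 in all, were upregulated and none downregulated, where 2.43% and 2.55% of all tested genes were. Of these 3 only 1 was called with 10 counts required in every sample. *Sult1e1*, the estrogen sulfotransferase, was read at 7.99, 5.64, 5.96, 3.65 and 9.21 CPM in the WT samples and 85.3, 107, 79.4, 91.6 and 103 CPM in the ArKI samples, which did not overlap (log2 fold change 3.83, SE 0.18, edgeR adjusted p = 9.8e-08). *Sult2a5* and *Sult2a6*, which are near copies of each other and may share reads, rose from 0.345 ± 0.361 to 4.48 ± 1.13 CPM and from 0.0915 ± 0.0974 to 3.47 ± 1.18 CPM and passed the filter through the ArKI samples. *Hsd11b1*, which regenerates active glucocorticoid, rose from 4.79 ± 0.209 to 11.6 ± 2.90 CPM (log2 fold change 1.23, SE 0.16, edgeR adjusted p = 1.4e-05). It and *Sult1e1* were the only ones called of 26 tested steroid receptors and steroid-converting enzymes. Within this list the estrogen receptor genes had opposite signs, *Esr1* at a log2 fold change of 0.65 (edgeR adjusted p = 2.3e-04) and *Esr2* at -0.71 (edgeR adjusted p = 0.0021), both within the fold limit. *Srd5a2*, whose enzyme makes dihydrotestosterone, had a log2 fold change of 0.03 (SE 0.13), and *Fkbp5*, a common androgen target, 0.21 (SE 0.052). *Adh1*, an alcohol and retinol dehydrogenase, was read at 75.8, 78.0, 76.6, 75.1 and 78.8 CPM in WT and 211, 268, 229, 217 and 214 CPM in ArKI samples (log2 fold change 1.56, SE 0.062, edgeR adjusted p = 3.0e-11). Its list of 12 tested aldo-keto reductases and alcohol dehydrogenases held 2 genes that rose and 2 that fell, the latter being *Akr1c12* and *Akr1c13*, whose log2 fold changes of -1.06 and -1.05 lay near the limit. *Akr1c12* was not called without WT replicate 2 or ArKI replicate 1, *Akr1c13* not without ArKI replicate 5, and *Adh7*, the other rise, not without WT replicates 1 to 4 or ArKI replicates 1, 2 or 4, each alone.

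*Abcb5*, of the ABC transporter family (chromosome 12, 118867486 to 118966434), showed both a large rise and a wide spread. It was read at 33.0, 7.38, 13.1, 4.99 and 16.3 CPM in the WT samples and 257, 458, 253, 253 and 339 CPM in the ArKI samples, which did not overlap (log2 fold change 4.36, SE 0.48, edgeR adjusted p = 2.1e-04). Of 34 tested ABC transporters 3 were upregulated and none downregulated, where 2.43% and 2.55% of all tested genes were. *Abca6*, a lipid transporter family member, rose from 2.91 ± 0.637 to 16.0 ± 2.99 CPM. The androgen response element is a palindrome of AGAACA, 3 free bases and its reverse complement, and RefSeq promoters of GRCm38.p6 (250 bases before to 50 after a start site) were searched for it. The whole element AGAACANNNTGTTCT was in the promoter of 1 of 9811 tested genes with a window and of no called gene. Its inner letters, NGNACANNNTGTNCN, were found for 2 of 235 upregulated genes (0.851%), 2 of 243 downregulated genes (0.823%) and 42 of the 9811 (0.428%). Both patterns read alike on the 2 strands. These 4 genes were *Abcb5* and *Slc10a6*, which rose, and *Trim63* and the testis-enriched *Allc*, which fell. The 250 bases before its start, chr12:118966422-118966671 on the minus strand, carry the match in capitals.
*Abcb5*: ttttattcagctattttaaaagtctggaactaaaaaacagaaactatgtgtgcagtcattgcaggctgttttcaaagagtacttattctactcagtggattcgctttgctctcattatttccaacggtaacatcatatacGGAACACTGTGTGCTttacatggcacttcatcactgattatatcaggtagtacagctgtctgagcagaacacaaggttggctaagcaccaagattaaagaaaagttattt
A match of letters does not show binding, and no sequence further from the start was searched.

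Of the secretory genes with the most counts, *Gpx5*, *Clu*, *Adam7*, *Rnase9* and *Lcn5* were not called. *Gpx5*, a glutathione peroxidase secreted onto sperm, was read at 43759, 57536, 52837, 61150.5 and 50637 CPM in the WT samples and 46669, 32854, 60248, 49890.4 and 47677 CPM in the ArKI samples, which overlapped (log2 fold change -0.16, SE 0.15, edgeR adjusted p = 0.47). *Clu* (clusterin), *Adam7* and *Rnase9* had log2 fold changes of 0.085, 0.15 and 0.045, with SEs of 0.06, 0.083 and 0.077. *Lcn5*, an epididymal lipocalin that binds retinoids, had a log2 fold change of -0.27 (SE 0.088, edgeR adjusted p = 0.033). The summed lipocalins were lower in every ArKI sample (15068 to 20355 CPM) than in every WT sample (21114 to 24521 CPM), with a median log2 fold change of -0.69 and 3 of 9 lower at an FDR below 0.05, where 14.0% of all tested genes were. None of the 10 genes with the most counts in the WT caput was called. Together the secretory lists took 13.1% to 14.0% of all counts in the WT samples and 12.5% to 14.1% in the ArKI samples, of which replicates 2 and 5 were the lowest of all 10. Of 82 tested genes with a mean of at least 1000 CPM that are not testis-enriched 4 were downregulated and 1 upregulated. That is 6.1% called, against 2.01% at 10 to 100 CPM and 1.55% at 100 to 1000 CPM. The 4 were *Spink11*, *Spink5*, *Ces5a* and *Ptgds*, all of them secretory genes.

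Below the 10 genes with the most counts, single secreted proteins fell sharply. *Ces5a*, a carboxylesterase that the epididymis secretes (chromosome 8, 93499063 to 93535879), was read at 2255, 2179, 2104, 2264 and 2567 CPM in the WT samples and 139, 289, 80.1, 155 and 153 CPM in the ArKI samples. Its groups were far apart, and the ArKI samples differed among themselves in proportion more than the WT samples did (log2 fold change -3.81, SE 0.32, edgeR adjusted p = 4.2e-05). *Ptgds*, a lipocalin that also makes prostaglandin D2, was read at 1872, 2074, 1738, 1665 and 1779 CPM in WT and 364, 339.8, 440.3, 450.2 and 383 CPM in ArKI samples (log2 fold change -2.21, SE 0.084, edgeR adjusted p = 8.2e-11). It was the only lipocalin called of 9 tested, though 2 were called without ArKI replicate 3. The testis-enriched *Crisp2*, also on the sperm list, and *Crispld1* were downregulated among 10 CRISP and related proteins, and *Clec18a* rose from 1.44 ± 0.838 to 10.5 ± 2.32 CPM.

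Kazal-type inhibitors of serine proteases were lower for the most part. Of 7 tested *Spink* genes 3 were downregulated and none upregulated, where 2.55% and 2.43% of all tested genes were. The median log2 fold change of the 7 was -0.80. *Spink2* was read at 1230.3, 1311, 1285, 1293 and 1156 CPM in the WT samples and 377, 271, 409, 453 and 429 CPM in the ArKI samples. *Spink5* was read at 2300.0, 2758, 2062, 2223 and 2467 CPM in WT and 806, 662, 917, 868 and 946 CPM in ArKI samples, and *Spink11* at 5667, 3986, 4585, 4319 and 5004 CPM in WT and 2071, 2746, 2209, 2221 and 2041 CPM in ArKI samples. The groups lay apart for all 3 genes, with log2 fold changes of -1.69, -1.49 and -1.06. Without WT replicate 1 *Spink11* stood at -0.98, just within the fold limit, which left 2 called members, and in a fit of all 4 epididymal groups together its edgeR adjusted p was 0.10. *Spink12* had a log2 fold change of -0.58 (edgeR adjusted p = 0.0078), and *Spink8* one of 0.33 (edgeR adjusted p = 0.043), in the other direction. The study picked the *Spink* family out on these samples, so their direction here is not independent evidence. The paper also reported lower *Spink2*, *Spink5* and *Spink11* by RT-qPCR, in the IS, the caput or both, and lower *Spink* transcripts in younger mice.

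Other secretory families were mixed. Of 30 tested beta-defensin genes, whose peptides are antimicrobial and coat sperm, 2 were downregulated and none upregulated. Among all tested genes these shares were 2.55% and 2.43%. At an FDR below 0.05 and no fold limit 5 were changed in each direction, near the 13.7% higher and 14.0% lower among all tested genes. *Defb19* was read at 35.7, 44.9, 38.8, 42.5 and 17.1 CPM in the WT samples and 5.17, 2.77, 5.74, 6.08 and 4.44 CPM in the ArKI samples (log2 fold change -2.82, SE 0.29, edgeR adjusted p = 8.6e-05), and WT replicate 5 was the lowest of its group by a wide margin. *Defb45* fell from 260.1 ± 27.1 to 99.1 ± 31.2 CPM (log2 fold change -1.38, SE 0.22, edgeR adjusted p = 0.0016). *Spag11b*, the defensin with the most counts, was at 12066 ± 1890.5 and 14222 ± 3292 CPM with overlapping groups. Among 14 tested WAP-domain inhibitors *Wfdc3* fell from 13.8 ± 2.55 to 1.95 ± 0.577 CPM, whereas *Wfdc2* rose from 5.02 ± 1.67 to 18.7 ± 4.17 CPM and *Wfdc16* from 21.7 ± 4.10 to 86.1 ± 34.6 CPM. *Serpine2*, or protease nexin-1, was the only serpin called of 15, at 8.60, 11.1, 10.9, 7.06 and 9.44 CPM in WT and 53.7, 66.4, 57.0, 61.6 and 46.6 CPM in ArKI samples (log2 fold change 2.59, SE 0.12, edgeR adjusted p = 8.7e-10), though 1 other serpin fell past both limits without WT replicate 1 or ArKI replicate 3. None of 7 cystatins and none of 26 glycosidases and lipid-binding proteins passed both limits, against 3 and 6 of the latter up and down at an FDR below 0.05 alone.

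Several secreted genes varied more among samples than between genotypes. *Lcn8* was read at 42.7, 125, 1077, 1147 and 199 CPM in the WT samples and 28.3, 69.0, 375, 166 and 52.1 CPM in the ArKI samples (log2 fold change -1.90, SE 1.08, edgeR adjusted p = 0.24). *Cst8* was read at 15.1, 63.9, 327, 307 and 56.8 CPM in WT and 7.82, 18.7, 85.6, 56.4 and 15.1 CPM in ArKI samples (log2 fold change -2.01, SE 0.96, edgeR adjusted p = 0.17). Both genes belong to the proximal epididymis, and their high samples were WT replicates 3 and 4 in one group and ArKI replicate 3 in the other. *Cst12*, *Lcn9* and *Rnase10* had the same high samples. In the WT mice *Rnase10* was at 10149 CPM in the IS and 729 CPM in the caput, and *Lcn9* at 10173 and 484 CPM. Of 11 genes listed as IS markers none was called, the median log2 fold change was -0.38, and the summed list took 6651 to 10933 CPM in WT and 6321 to 9324 CPM in ArKI samples. In these data 2 genes of that list, *Defb30* and *Spint4*, were higher in the WT caput than in the WT IS. *Spint4* was read at 1287, 7.59, 582, 39.2 and 387 CPM in WT and 211, 365, 5.38, 100.8 and 410.4 CPM in ArKI samples, highest where *Lcn8* was lowest among the WT samples. How much neighbouring tissue each dissection held was not tested.

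**Figure D3:**
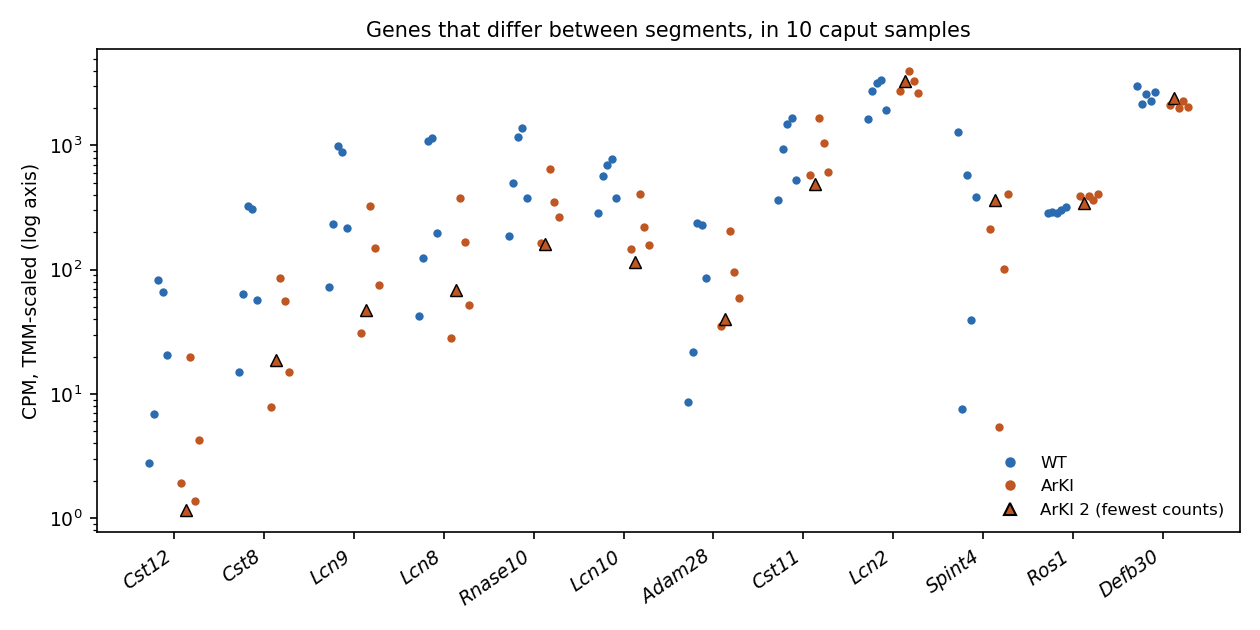
CPM on a logarithmic axis in each of the 10 caput samples for 12 genes, most of which differ between the IS and the caput of WT mice, with WT in blue, ArKI in orange and ArKI replicate 2 as a triangle. *Cst12*, *Cst8*, *Lcn9*, *Lcn8* and *Rnase10* spread widely within each genotype and overlap between them, whereas *Ros1* and *Defb30* vary little.

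Metabolic enzymes included opposite changes within families. Of 31 tested eicosanoid synthesis enzymes 3 were upregulated and 3 downregulated, where 2.43% and 2.55% of all tested genes were. *Alox5*, which starts leukotriene synthesis, was read at 30.8, 38.3, 32.0, 31.9 and 28.9 CPM in the WT samples and 7.82, 4.84, 8.47, 8.82 and 9.05 CPM in the ArKI samples (log2 fold change -1.99, SE 0.11, edgeR adjusted p = 1.6e-09). *Alox15* rose from 1.48 ± 0.350 to 4.61 ± 1.47 CPM, *Alox12* from 84.5 ± 11.1 to 187 ± 21.8 CPM, and *Pla2g4f*, a phospholipase, fell from 57.8 ± 7.95 to 16.6 ± 2.10 CPM. The retinoid list had 3 of 20 tested members downregulated and 1 upregulated, against the same shares. *Stra6*, the cell surface receptor for retinol-binding protein, was read at 8.91, 12.2, 8.41, 9.49 and 11.9 CPM in WT and 2.29, 3.00, 2.47, 2.14 and 1.32 CPM in ArKI samples (log2 fold change -2.24, SE 0.19, edgeR adjusted p = 1.5e-07). *Rarres1*, named for its induction by retinoids, fell from 52.6 ± 2.94 to 15.8 ± 1.70 CPM and *Cyp26b1*, which degrades retinoic acid, from 7.30 ± 1.89 to 3.09 ± 1.02 CPM, whereas *Rdh12*, a retinol dehydrogenase, rose from 8.16 ± 0.569 to 21.0 ± 1.40 CPM. *Elovl2* elongates polyunsaturated fatty acids and was the only called gene of 28 in fatty acid synthesis and lipid droplets, downregulated at 143, 160.1, 141, 145 and 151 CPM in WT and 38.1, 32.1, 45.1, 37.5 and 45.2 CPM in ArKI samples (log2 fold change -1.89, SE 0.077, edgeR adjusted p = 1.1e-10). None of the 21 tested genes of cholesterol synthesis, 24 of fatty acid oxidation, 27 of glutathione transfer and synthesis or 74 of oxidative phosphorylation passed both limits. At an FDR below 0.05 alone 3 genes of cholesterol synthesis were higher and 4 lower, 1 and 7 of fatty acid oxidation, 7 and 6 of glutathione transfer and synthesis, and 3 and 4 of oxidative phosphorylation, where 13.7% of all genes were higher and 14.0% lower. *Gstm7*, a glutathione transferase, was read at 1117, 962, 1024, 1035 and 1163 CPM in WT and 1772, 2006, 1686, 1853 and 1793 CPM in ArKI samples, apart but within the fold limit.

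Ion channel genes held calls in both directions. Of 63 tested TRP, mucolipin, polycystin, sodium, calcium, chloride and GABA channel genes 8 were upregulated and 4 downregulated, where 2.43% and 2.55% of all tested genes were. *Cacna1h*, a T-type calcium channel, was read at 56.1, 40.1, 46.4, 35.7 and 39.1 CPM in the WT samples and 7.34, 7.61, 5.56, 7.37 and 5.76 CPM in the ArKI samples (log2 fold change -2.72, SE 0.14, edgeR adjusted p = 5.3e-09). *Pkd2l1*, a polycystin-family cation channel, fell from 38.7 ± 8.83 to 6.66 ± 2.40 CPM, *Mcoln3* from 15.8 ± 3.29 to 2.53 ± 1.00 CPM and the GABA receptor gene *Gabrr1* from 5.58 ± 2.49 to 0.212 ± 0.149 CPM. The genes of 2 subunits of the epithelial sodium channel rose from low levels, *Scnn1b* from 0.551 ± 0.278 to 4.12 ± 0.664 CPM and *Scnn1g* from 0.519 ± 0.118 to 1.74 ± 0.395 CPM, and like *Cacng4* they passed the filter through the ArKI samples. *Cacng4*, a calcium channel subunit gene, was read at 1.02, 1.52, 0.467, 0.852 and 0.816 CPM in WT and 14.9, 12.9, 11.2, 13.9 and 13.7 CPM in ArKI samples (log2 fold change 3.80, SE 0.20, edgeR adjusted p = 5.9e-10). Against the same shares of all genes, 4 of 44 tested potassium channel genes rose and 3 fell, among the latter *Kcna1*, from 72.8 ± 7.34 to 26.1 ± 5.53 CPM.

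Acidification of the lumen keeps sperm quiescent and rests on proton pumps and bicarbonate transport. Of 29 tested genes of this list 1 was upregulated and 1 downregulated, and at an FDR below 0.05 alone 6 were higher and 10 lower, against 13.7% and 14.0% of all tested genes. Their summed level was 2791 to 2995 CPM in the WT and 2334 to 2677 CPM in the ArKI samples, which did not overlap. None of 4 aquaporins or 6 calcium pumps passed both limits. *Cftr*, a chloride and bicarbonate channel, was read at 10.6, 12.2, 16.2, 14.7 and 13.1 CPM in the WT samples and 3.97, 4.15, 8.56, 6.08 and 6.33 CPM in the ArKI samples (log2 fold change -1.14, SE 0.18, edgeR adjusted p = 1.8e-04). *Car2*, a carbonic anhydrase, rose from 11.8 ± 3.28 to 24.4 ± 3.35 CPM. Its log2 fold change of 1.04 lay near the limit and was not called without WT replicate 5 or without ArKI replicate 3. Of 243 tested solute carriers 13 rose and 5 fell, the latter close to the 2.55% of all tested genes that fell, where 2.43% rose. *Slc39a8*, a zinc and manganese importer, rose from 142 ± 40.5 to 328 ± 43.8 CPM, and *Slc7a8*, an amino acid transporter, fell from 96.1 ± 7.63 to 35 ± 3.26 CPM.

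Among regulators, a few genes were close to lost or newly read. *Rhox5*, an androgen-responsive homeobox gene of the X chromosome, was read at 5.73, 7.38, 6.07, 5.23 and 6.18 CPM in the WT samples and at 0 counts in every ArKI sample. Against 3 counts in each ArKI library it was at least 16.8-fold lower (edgeR adjusted p = 1.7e-08). *Sp6*, a zinc finger transcription factor, was read at 14.6, 9.44, 12.3, 10.5 and 9.21 CPM in WT and 0.481, 0, 0.441, 0.685 and 0.411 CPM in ArKI samples (log2 fold change -4.58, SE 0.26, edgeR adjusted p = 1.5e-09). *Nkx6-1*, a homeodomain factor best known from pancreatic beta cells (chromosome 5, 101659184 to 101664711), was read at 0.205, 0, 0.350, 0 and 0.233 CPM in WT and 19, 16.8, 15.4, 20.2 and 14.1 CPM in ArKI samples. The WT libraries held 2, 0, 3, 0 and 2 counts of it and the ArKI libraries 158, 73, 174, 236 and 172 (edgeR adjusted p = 9.1e-11). *Nkx6-1* passed the filter through the ArKI samples, and *Rhox5* and *Sp6* through the WT samples. Of 40 tested epithelial and segment transcription factors 2 were upregulated and 1 downregulated, near the 2.43% and 2.55% of all tested genes, 1 of the rises (*Irx1*) being lost without WT replicates 2, 3, 4 or 5 or ArKI replicates 1, 2, 4 or 5, each alone, and none of 27 tested Hox genes was called, with 3 in each direction at an FDR below 0.05 alone.

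Signalling lists held single genes with large changes. *Ephb1*, a receptor tyrosine kinase for ephrins, was read at 0.512, 0.325, 0.934, 0.730 and 0.350 CPM in the WT samples and 24.4, 17.1, 19.3, 26.0 and 22.5 CPM in the ArKI samples (log2 fold change 5.26, SE 0.21, edgeR adjusted p = 3.0e-11). *Ephb1* passed the filter through the ArKI samples. It was the only upregulated gene of 43 tested semaphorins, plexins, ephrins and receptors, and *Sema3g*, which fell from 16.1 ± 1.83 to 5.82 ± 1.49 CPM, the only downregulated one, shares close to the 2.43% and 2.55% of all tested genes. At an FDR below 0.05 alone 20 of the 43 were higher and 10 lower, against 13.7% and 14.0% of all genes. Without WT replicate 1 or ArKI replicate 3, each alone, 2 members of that list were upregulated, and without ArKI replicate 1 2 were downregulated. *S1pr3*, a receptor for sphingosine-1-phosphate, was read at 55.8, 71.5, 54.2, 52.7 and 64.5 CPM in WT and 8.66, 3.69, 7.33, 8.82 and 9.95 CPM in ArKI samples (log2 fold change -2.87, SE 0.16, edgeR adjusted p = 9.4e-08). In the BMP and TGF-beta list the extracellular BMP antagonists *Chrd* (chordin) and *Sostdc1* rose, *Chrd* from 5.16 ± 1.08 to 16.1 ± 2.72 CPM and *Sostdc1* from 0.255 ± 0.137 to 3.00 ± 1.34 CPM, and *Bambi*, a decoy receptor, fell from 20.8 ± 2.48 to 7.40 ± 1.30 CPM, with 2 members downregulated without ArKI replicate 2. *Wnt10a*, a Wnt ligand, rose from 2.21 ± 0.636 to 5.67 ± 1.16 CPM and *Dkk2*, a Wnt antagonist, from 1.01 ± 0.280 to 4.01 ± 1.15 CPM. None of 28 tested genes of lumicrine ROS1 and ERK signalling, by which testicular factors act on the IS, passed both limits, and 3 in each direction had an FDR below 0.05. *Ros1* among them was read at 286, 292, 284, 301 and 319.9 CPM in WT and 390.1, 347, 390.3, 363 and 409 CPM in ArKI samples (log2 fold change 0.36, SE 0.055, edgeR adjusted p = 1.1e-04).

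Cell division genes were higher in the ArKI samples. Of 37 tested genes 11 were upregulated and none downregulated, where 2.43% and 2.55% of all tested genes were. At an FDR below 0.05 alone 28 were higher and none lower, against 13.7% and 14.0% of all tested genes. The median log2 fold change of the list was 0.82. *Mki67*, the proliferation marker Ki-67, was read at 4.2, 4.23, 5.02, 6.57 and 9.68 CPM in the WT samples and 15.3, 36.7, 13.9, 17.6 and 17.8 CPM in the ArKI samples (log2 fold change 1.71, SE 0.33, edgeR adjusted p = 0.0042). *Top2a*, a topoisomerase of dividing cells and 1 of 9 testis-enriched members, was read at 5.43, 3.80, 4.2, 4.26 and 9.56 CPM in WT and 14.4, 31.8, 14.2, 13.7 and 15.1 CPM in ArKI samples. *Ccnd1* (cyclin D1) was read at 124, 118, 132, 132 and 140.0 CPM in WT and 225, 237, 206, 243 and 230.5 CPM in ArKI samples, apart but within the fold limit. ArKI replicate 2 was the highest of the 5 ArKI samples for 29 of the 37 genes and for 28.8% of all tested genes. Without it 8 members were called, with a median of 0.74 and none downregulated. The lowest count, 4 members, was found without WT replicate 3, and *Mki67* was not called without WT replicates 1, 2, 3 or 4 or ArKI replicate 5, each alone, at log2 fold changes of 1.46 to 1.95 over all settings. *Cdkn1a*, an inhibitor of cell division in the same list, was read at 37.8, 41.8, 36.1, 33.5 and 36.7 CPM in WT and 72.4, 99.2, 64.6, 68.4 and 72.5 CPM in ArKI samples, a log2 fold change of 1.00 that was 0.91 without ArKI replicate 2 and also missed the fold limit without WT replicates 3, 4 or 5.

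Markers of stromal and immune cells stood higher in part of the ArKI samples. Fibroblast genes summed to 1637 to 1776 CPM in the WT and 1559.9 to 3071 CPM in the ArKI samples, macrophage genes to 232 to 313 and 286 to 494 CPM, and smooth muscle genes to 1466 to 1892 and 1313 to 2572 CPM. In each of these lists the highest sum was that of ArKI replicate 2, whose principal cell sum was the lowest of all 10. MHC class II genes present antigen, and they summed to 169 to 217 CPM in WT and 259.8 to 441 CPM in ArKI samples, which did not overlap. Of 7 tested members 2 were upregulated, against 2.43% of all tested genes. These were *Cd74*, at 60.2, 66.0, 78.2, 60.3 and 67.2 CPM in WT and 117, 188, 118, 150.4 and 106 CPM in ArKI samples, and *H2-Eb1*, at 23.4, 22.5, 29.5, 26.2 and 22.5 CPM and 44.3, 73.1, 42.1, 58.1 and 38.9 CPM. Without ArKI replicate 2 neither was called, with log2 fold changes of 0.90 and 0.89 against 1.02 and 1.02 with it, and leaving out WT replicate 1 or ArKI replicate 4 also left none, and 4 members were called without WT replicate 3 or ArKI replicate 5. *Cd74* was further lost without WT replicate 4, and *H2-Eb1* without WT replicate 2 or 5. Of 13 tested fibroblast markers 2 were upregulated, against 2.43% of all tested genes. They were *Dpt* (dermatopontin) and *Mfap5*, both of the extracellular matrix, but *Mfap5* was not called without ArKI replicate 2 or 4 or without any single WT sample. None of 3 tested T and B cell, 2 neutrophil, 15 endothelial, 18 smooth muscle or 19 macrophage markers passed both limits. The part that these cells play in the results was not tested.

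**Figure D4:**
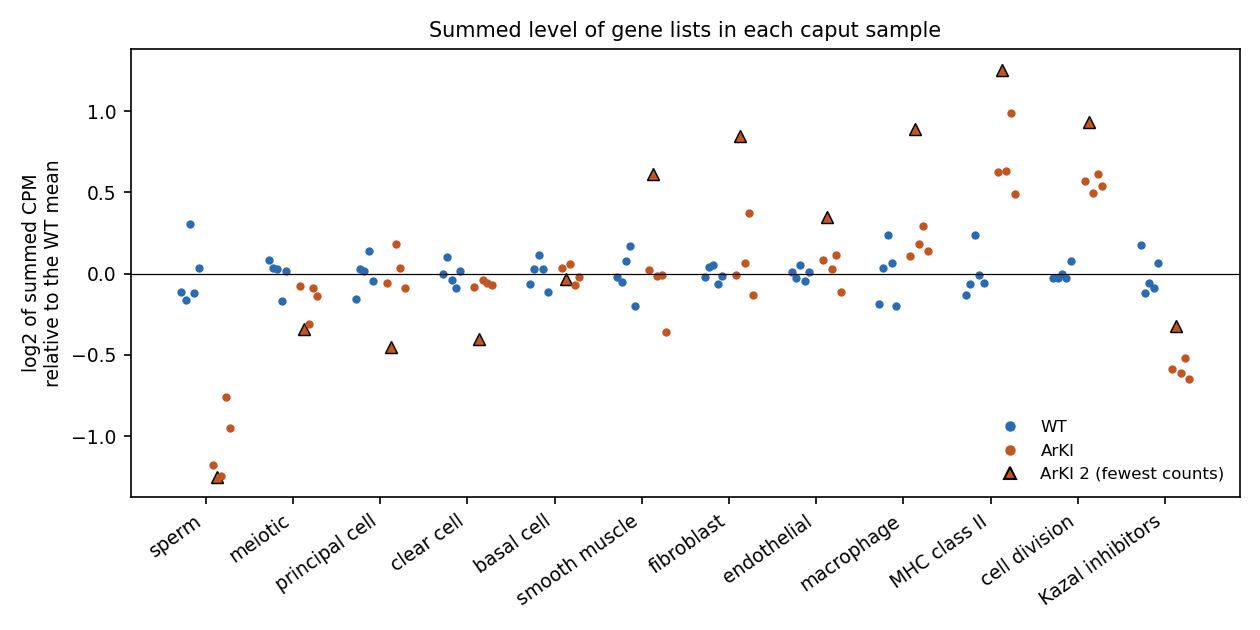
Log2 of the summed CPM of 12 gene lists in each caput sample relative to the WT mean, with WT in blue, ArKI in orange and ArKI replicate 2 as a triangle. The sperm sums of all ArKI samples lie below and the cell division and MHC class II sums above those of all WT samples, and the triangle is highest for smooth muscle, fibroblast, endothelial, macrophage, MHC class II and cell division genes.

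Some complement and chemokine genes rose and none was downregulated. Of 23 tested complement genes 4 were upregulated, against 2.43% of all tested genes. *C4b*, of the classical pathway, was read at 20.6, 17.4, 23.6, 22.9 and 21.9 CPM in the WT samples and 75.3, 95.0, 75.3, 85.1 and 70.4 CPM in the ArKI samples (log2 fold change 1.91, SE 0.092, edgeR adjusted p = 8.7e-10), though reads of its near copy *C4a* may be counted with it. *C3*, the central component, was read at 148, 148, 172, 116 and 186 CPM in WT and 267, 404, 267, 317 and 351 CPM in ArKI samples and *C7*, of the membrane attack complex, rose from 84.4 ± 15.7 to 188 ± 20.1 CPM. Without ArKI replicate 2 only 2 of the 4 were called. Of 20 tested chemokines and their receptors 3 rose, and 5 without ArKI replicate 1. *Darc* and *Ccbp2* (Ackr1 and Ackr2), atypical receptors that take up chemokines without signalling, rose from 0.457 ± 0.263 to 4.41 ± 1.01 and from 0.268 ± 0.164 to 1.98 ± 0.482 CPM, and *Cxcl14* from 25.1 ± 3.18 to 66.6 ± 13.3 CPM. The first 2 of these passed the filter through the ArKI samples. *Il24* and *Il31ra*, the only called interleukin genes of 32, rose from 0.0233 ± 0.0521 to 2.52 ± 0.742 and from 0.182 ± 0.104 to 3.70 ± 1.21 CPM, and both were tested only through the ArKI samples. *Ripk3*, a kinase of necroptosis, was read at 9.93, 4.88, 5.37, 3.77 and 6.41 CPM in WT and 19.5, 29.1, 22.9, 31.1 and 20.6 CPM in ArKI samples (log2 fold change 1.99, SE 0.23, edgeR adjusted p = 7.7e-05).

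Of 58 tested matrix proteases, inhibitors and matrix proteins 7 were upregulated and 1 downregulated, against 2.43% and 2.55% of all tested genes, with a median log2 fold change of 0.32 that was 0.16 without ArKI replicate 2. *Mmp7* (matrilysin) was read at 14.1, 20.5, 20.6, 18.3 and 15.7 CPM in the WT samples and 50.5, 141, 66.9, 46.4 and 48.8 CPM in the ArKI samples, with ArKI replicate 2 the highest (log2 fold change 1.93, SE 0.36, edgeR adjusted p = 0.0043). It was not called without ArKI replicate 3 or without any single WT sample. *Timp1*, an inhibitor of such proteases, rose from 7.44 ± 0.831 to 20.9 ± 3.13 CPM and *Fn1* (fibronectin) from 27.3 ± 2.21 to 64.9 ± 20.9 CPM, whereas *Adamts16* fell from 3.38 ± 0.857 to 0.862 ± 0.211 CPM. None of 34 collagen genes passed both limits. Of 52 tested junction genes 4 rose and 2 fell, the latter near the share of all genes, *Cldn11* among the latter, from 17.7 ± 2.33 to 7.06 ± 0.721 CPM, and *Pof1b*, which binds actin in epithelia, among the former, from 0.638 ± 0.172 to 6.02 ± 0.762 CPM. *Pof1b* passed the filter through the ArKI samples.

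Some lists shifted by small steps with no member past the fold limit. Of 25 tested genes of glycolysis 13 were lower and 2 higher at an FDR below 0.05, against 14.0% and 13.7% of all tested genes, with a median log2 fold change of -0.24. *Aldoa* (aldolase A) had a log2 fold change of -0.42, *Pfkl* (phosphofructokinase) of -0.46 and *Slc16a1*, a lactate transporter, of -0.71, while the testis-enriched *Pfkp* stood at 0.89. Of 34 tested endoplasmic reticulum chaperone and unfolded protein response genes 13 were lower and 2 higher at the same limit. *Hspa5* (BiP), which folds secretory proteins, was read at 2586, 2299, 2461, 2541 and 2757 CPM in the WT samples and 2086, 1956, 2158, 2179.8 and 2187 CPM in the ArKI samples, and *Pdia6*, a disulfide isomerase, at 1345, 1333, 1357, 1462 and 1474 CPM in WT and 1099, 1122, 1171, 1184 and 1127 CPM in ArKI samples. The groups did not overlap for either gene. Ribosomal protein genes moved the other way, with 15 of 68 higher and 1 lower and a median of 0.11. Without ArKI replicate 2 these counts were 13 lower and 2 higher for glycolysis, 12 and 2 for the chaperones, and 17 higher and 1 lower for the ribosomal genes.

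Large changes were also found in genes of no list. *Gm4926*, a predicted gene (chromosome 11, 46636506 to 46645006), was read at 47.9, 53.6, 48.5, 64.1 and 44.9 CPM in the WT samples and 2.29, 0.692, 0.706, 1.2 and 1.32 CPM in the ArKI samples. The groups were far apart, and the fall of 5.35 on the log2 scale had an SE of 0.19 (edgeR adjusted p = 2.6e-10). *Ttn*, which encodes the giant muscle protein titin, was read at 1.64, 1.08, 0.934, 1.83 and 1.75 CPM in WT and 21.2, 16.6, 16.5, 16.7 and 21.7 CPM in ArKI samples (log2 fold change 3.68, SE 0.17, edgeR adjusted p = 1.5e-10). *Faim3*, a receptor for IgM, was read at 0.614, 0.542, 0.350, 0.243 and 0.233 CPM in WT and 7.82, 9.69, 5.56, 6.85 and 5.35 CPM in ArKI samples, through which it passed the filter. *1700018G05Rik* (chromosome X, 102928372 to 102929107) was read at 10.1, 11, 10.9, 10.6 and 11 CPM in WT and 0.722, 1.85, 1.59, 0.942 and 0.905 CPM in ArKI samples (log2 fold change -3.22, SE 0.19, edgeR adjusted p = 1.9e-09). *Ankrd34b*, an ankyrin repeat gene, fell from 5.95 ± 2.58 to 0.353 ± 0.273 CPM. Among listed genes *Kcnd1*, a potassium channel, rose from 9.89 ± 1.64 to 33.3 ± 7.17 CPM and *Ly6f*, of the Ly6 family, from 6.12 ± 1.91 to 32.5 ± 15.5 CPM.

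**Figure D5:**
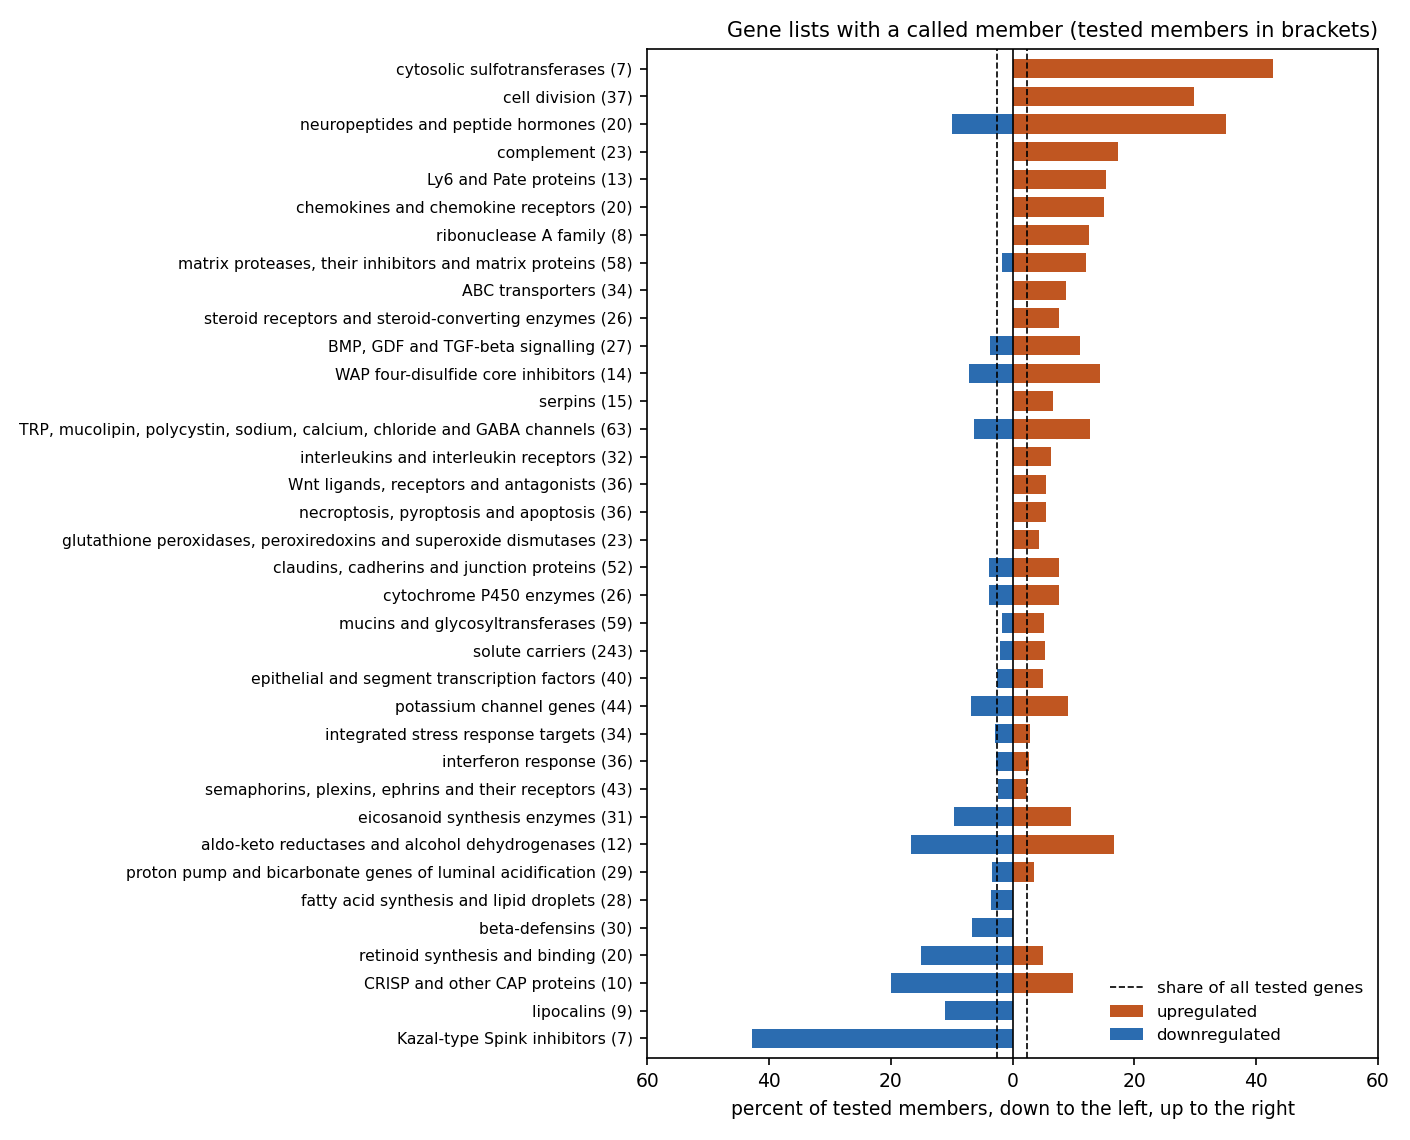
Percent of the tested members of each gene list that were upregulated (orange, to the right) or downregulated (blue, to the left), for lists outside the cell type markers with at least 5 tested members and a called one. Dashed lines mark the 2.43% and 2.55% of all tested genes, and the longest bars are those of the sulfotransferases upward, 3 of 7, and the Kazal-type inhibitors downward, 3 of 7.

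ArKI replicate 2, with the fewest counts, was the highest of the 5 ArKI samples for 147 of the 306 upregulated genes that are not testis-enriched (48.0%) and the lowest for 63 (20.6%). For the 193 downregulated genes it was the lowest for 72 (37.3%) and the highest for 54 (28.0%). Over all tested genes it was the highest for 28.8% and the lowest for 29.5%. Leaving it out gave 319 upregulated and 394 downregulated genes, and 633 of the 683 genes were called again and none in the opposite direction. Among genes that are not testis-enriched the numbers were 297 and 202, against 306 and 193 with it. *Npy*, *Pappa2*, *Abcb5*, *Ces5a* and *Ptgds* had log2 fold changes of 5.19, 4.38, 4.19, -4.10 and -2.15 without it. Thinning every sample to its total gave 488 called genes, 433 of them among the 683, and the sperm list then had 20 downregulated members of 29. In the thinned samples the upregulated members went from 11 to 5 for cell division, from 8 to 4 for the ion channels other than potassium channels and from 2 to 0 for the interleukins, and the downregulated meiotic genes from 3 to 0. Some lists gained members, and those upregulated went from 2 to 4 for MHC class II. Without ArKI replicate 2 upregulated members were lost from cell division (11 to 8), complement (4 to 2) and MHC class II (2 to 0), and 1 each from 8 further lists.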

How the data were processed

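Whole caput RNA of 5 ArKI and 5 WT mice was sequenced as 50 bp single reads. The authors aligned reads to mm10 with STAR and counted them per RefSeq gene with Subread (version 1.5.1 in the submitters' processing notes, which also name bcl2fastq 1.8.4), and deposited raw counts of 23337 genes. The labels and the methods name different library kits and the strand setting of the counting is not given in the sources used here, so overlapping and antisense genes, like near-identical paralogs, are uncertain.

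Counts were tested with edgeR 4.0.16 in R 4.3.3 (TMM scaling, filterByExpr, robust quasi-likelihood fit, Benjamini-Hochberg adjustment) on the 10 caput samples without covariates. A gene was called at an FDR below 0.01 and a fold above 2. The study's methods used ROTS, which was not run. The members and gene lists were chosen with earlier results of these data known. Named genes were the 12 largest rises and falls among called genes that are not testis-enriched (at least 5 CPM in the higher group, groups apart), the 10 genes with the highest WT level, up to 2 called members per list and direction, the most abundant member of each secretory list, 5 sperm genes, 2 members per cell type list and called genes with the whole androgen element; others, such as *Penk*, *Agt*, *Igf1*, *C3*, *Top2a* and *Pkd2l1*, were named after their values were seen. On simulated data of 13726 genes for this comparison, 94 of 99 genes changed 2.5-fold and 96 of 99 changed 4-fold were recovered, with 0 false calls. Equal replicate numbers did not pair the samples. The labels do not say that they come from one litter or batch, and the correlations of same-numbered samples were 0.16, -0.19, 0.090, 0.047 and 0.20. No 2 samples held identical counts. Alternatives included RLE factors (edgeR), library size scaling, DESeq2 1.42.0, limma-voom (limma 3.58.1), other filters, thinning of every sample to the shallowest total, and leaving out each sample. Coordinates and promoters are RefSeq GRCm38.p6. Some items that the rule names are not reported here.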

Additional observations from a re-analysis of the deposited data

Results flagged for a closer look

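In 20 of 298 groups of 5 samples examined 1 sample lay far from the other 4, where chance gives about 14.9, and 13 of the 20 were in ArKI replicate 2, the sample with the fewest counts. In that sample the value was the highest of its group for *Mki67* (36.7 CPM against 17.8 in the nearest sample), *Ccna2* (17.8 against 8.05), *Cdkn1a* (99.2 against 72.5), *Csf1r* (45.9 against 33.6), *Cyp2j13* (18.9 against 11.9), *Lipe* (17.5 against 12.5), *Ly6e* (1224 against 837) and *Spink11* (2746 against 2221). It was the lowest for *Alox5* (4.84 against 7.82), *Glul* (5917 against 6784), *Rhcg* (648 against 824), *Slc38a5* (3732 against 5229) and *Sult2a6* (1.38 against 3.85).

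Among the WT samples replicate 5 was low for *Defb19* (17.1 CPM against 35.7) and high for *Lpl* (24.7 against 13.5). WT replicate 3 was high for *Dpt* (14.4 against 11.1) and *Prm2* (134 against 84.8). WT replicate 2 was low for *Ifi44* (0.868 against 1.74) and *Mfap5* (3.47 against 4.2), and WT replicate 4 low for *Mlh3* (66.3 against 73.3). The causes were not tested.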

How the results depend on the processing

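With no sample left out, the numbers of called genes stayed within 1.5 times those reported under most settings. With no filter beyond 1 count 605 genes were downregulated. When a gene needed 10 counts or more in each of the samples, 185 rose and 126 fell, or 175 and 110 without testis-enriched genes. With no fold limit at the same FDR 1183 rose and 1285 fell, or 1134 and 1082 without testis-enriched genes. Leaving out 1 sample at a time gave 305 to 351 upregulated and 340 to 394 downregulated genes, and 280 to 323 and 181 to 209 without testis-enriched genes. DESeq2 called 716 genes (676 of the 683) and limma-voom 666 (645). The replicate block, by number, called 656 (629 of the 683); under it *Prm2* and *Defb45* had adjusted p-values of 0.018 and 0.016, and since the numbers did not pair the samples it is no measure of a weaker effect. Of 112 named genes called, 86 were called under every setting in which they could be tested (17 to 20 settings for each gene, since stricter filters and thinning dropped some) and none reversed. With 1 sample left out, the log2 fold change changed sign for *Rnase9* (-0.016 without WT replicate 2, up to 0.099), *Cst11* (0.0025 without WT replicate 3 and 0.086 without WT replicate 4, down to -0.55), *Lpl* (0.12 without WT replicate 5, down to -0.20) and *Acta2* (-0.085 without ArKI replicate 2, up to 0.23), none of which was called. The depth of ArKI replicate 2 limits genes near 0.692 CPM. Of 438 list genes below the filter 136 had an exact permutation p under 0.05 (two-sided, smallest possible 0.0079), and none passed adjustment, the smallest adjusted value being 0.0504.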
